A study of Xenopus tropicalis with 12 samples.

Results

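The genes described here are 9 genes of the Notch pathway in the TR (T3 receptor) ChIP-Seq data of *Xenopus tropicalis* tadpole intestine: the receptors notch1, notch2 and notch3, the ligands dll1, dll4, jag1 and jag2, and the nuclear effectors rbpj and hes1. They were looked up by symbol in the gene column of the 12 peak lists. The lists name 8 of the 9 genes, out of 19140 gene symbols named in all, and rbpj is not named in any list. For each named gene, peaks were taken from its extent, the span between the lowest and the highest position of its listed features, and from the 5 kb on either side.

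Intestines were taken at stage 54, before metamorphosis, from TRα-/- and wild-type tadpoles. The tadpoles had 18 h of 10 nM T3 or, as control, 0 h of treatment. The intestines of several tadpoles were pooled into 1 ChIP DNA sample for each of the 4 conditions, precipitated with polyclonal TR antibodies that bind TRα as well as TRβ, and each ChIP DNA sample was sequenced as 3 technical replicates. A peak marks a place where fragments were stacked higher than in its surroundings, and each library has its own list, called without an input library. The spread between the 3 libraries of a condition is therefore that of library making and sequencing, not that between animals, and no difference between conditions could be tested over animals.

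The lists held between 17414 peaks, in TRα-/- T3 replicate 1, and 63333 peaks, in wild-type control replicate 3. Read totals are not part of the lists, and sequencing depth is therefore unknown. The background level worked back from pileup and fold enrichment, a rough index of depth, lay between 0.0898 and 0.664 fragments per base. Peak lists carry no expression values, so the tissue was not checked against marker genes, and thra, the gene of TRα, is not named in any list, so the genotype was not checked either.

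Notch receptors sit in the cell membrane and are bound by Delta-like and Jagged ligands on neighboring cells. Binding lets proteases cut the receptor, and the freed intracellular part enters the nucleus, where it joins the DNA-binding protein RBPJ and switches on genes such as those of the Hes repressors. In the mouse intestine, Notch signaling keeps epithelial stem cells in their state and steers their progeny to the absorptive rather than the secretory fate, with Hes1 holding down Atoh1.

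Of the 8 named Notch genes, notch1 carried a group of TR regions found again in library after library, whereas the other 7 had mostly weak peaks in single libraries. A gene was called TR-bound in a condition when a region joined from overlapping peaks of all 3 replicates lay in its extent or in a 5-kb flank. By this rule notch1 was TR-bound in all 4 conditions and none of the other 7 genes in any. Among all 18944 genes with 1 gene ID on 1 chromosome, 11.5% were TR-bound in TRα-/- T3, 13.6% in TRα-/- control, 21.1% in wild-type T3 and 16.0% in wild-type control intestine, and 8.55% in all 4 conditions. A count of 1 gene of 8 is near these shares.

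**Figure D1:**
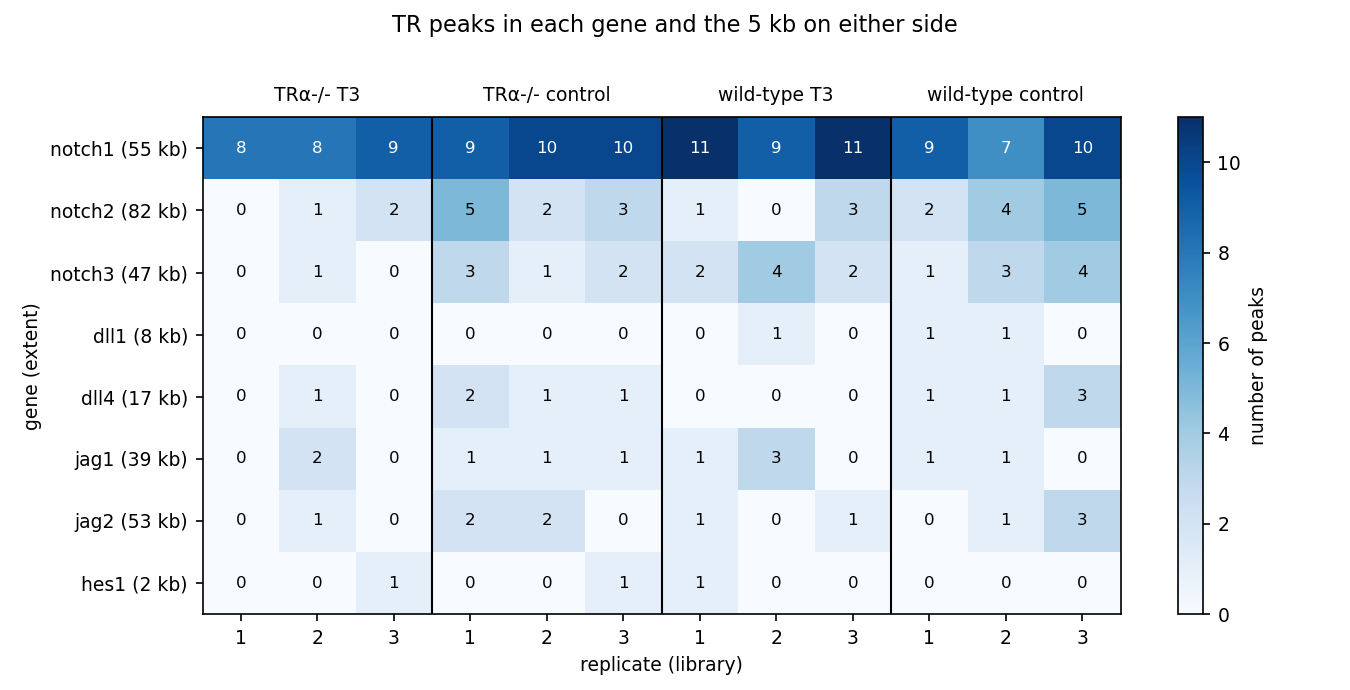
Number of TR peaks in each named Notch gene and its 5 kb flanks (rows, with the extent of the gene) in each of the 12 libraries (columns, 3 replicates for each condition). The row of notch1 holds 7 to 11 peaks in every library, and every other row has libraries with 0 peaks.

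Of the receptors, notch1 (chromosome 2, positions 81920085 to 81975092 of the Xenbase v9.1 assembly, minus strand, 55008 bp) had 111 peaks over the 12 libraries. The number of peaks was 8, 8 and 9 in the TRα-/- T3 libraries, 9, 10 and 10 in TRα-/- control, 11, 9 and 11 in wild-type T3, and 9, 7 and 10 in wild-type control libraries. No library was without a peak at notch1. A peak in every library was found at 14.2% of all genes, and as many peaks as at notch1 at 183 genes (0.966%). Per length, notch1 had 1.42 peaks per 10 kb and library, a density that 1.24% of genes reached.

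Long genes offer more room for peaks, and the share of TR-bound genes rose with the extent. Among genes of 50 kb and over, 19.0% were TR-bound in TRα-/- T3, 22.9% in TRα-/- control, 32.7% in wild-type T3 and 26.8% in wild-type control intestine. At notch1, the number of regions with peaks of all 3 replicates was 5 in TRα-/- T3, 6 in TRα-/- control, 8 in wild-type T3 and 5 in wild-type control intestine. At least 5 such regions were found at 2.12%, 2.79%, 6.59% and 3.65% of genes of 50 kb and over in the same order of conditions, and at 0.301% of all genes (57 genes) in each of the 4 conditions. notch1 thus had more regions than most genes of its length.

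**Figure D2:**
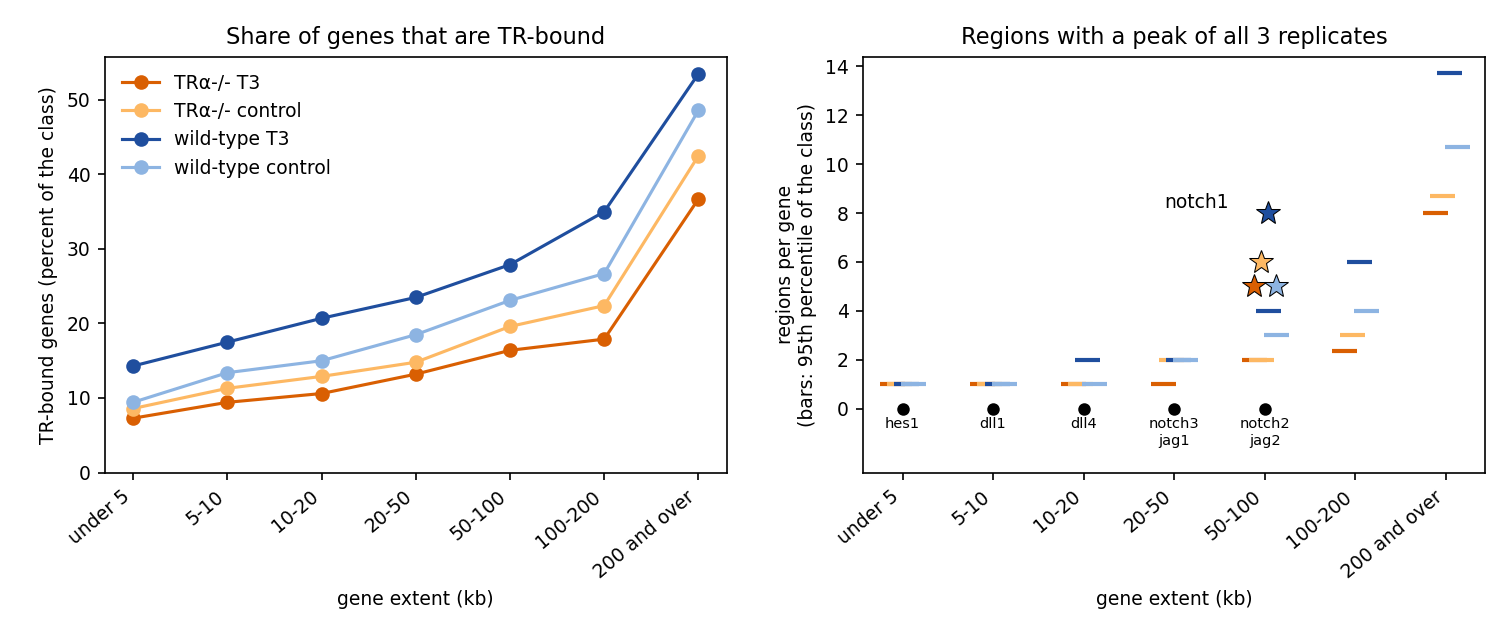
Left, percent of genes that were TR-bound against gene extent in kb, 1 line for each condition. Right, regions with peaks of all 3 replicates per gene: stars are notch1, black points the other 7 Notch genes at 0, and bars the 95th percentile of genes of the same extent. The stars, at 5, 6, 8 and 5 regions, lie above the bars of their extent class, which are at 2, 2, 4 and 3.

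When the peaks of all 12 libraries were joined, they formed 16 regions at notch1, of which 4 had a peak in all 12 libraries and 5 in a single library. Over the whole genome, 1.49% of 264370 joined regions had a peak in all 12 libraries and 81.9% in a single library. Of the 16 regions, 8 were called in each of the 3 libraries of at least 1 condition. These 8 are described here by the distance of their centre from the start of notch1 in the direction of transcription. The 3 replicates had a peak in 7, 7 and 7 of these 8 regions in TRα-/- T3, in 5, 8 and 8 in TRα-/- control, in 8, 8 and 8 in wild-type T3, and in 6, 6 and 8 in wild-type control intestine.

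The 8 regions lay far from the start of the gene. None of the peaks in the 5 kb upstream of notch1 recurred: the 3 joined regions there had a peak in a single library each. The region nearest to the start (chr2:81966392-81967312, 8.2 kb from the start) had a peak in 11 libraries. A cluster of 4 regions followed between 19.4 and 24.9 kb (chr2:81955461-81956021, chr2:81954066-81954730, chr2:81951672-81952485 and chr2:81949603-81950787), with a peak in 10, 8, 12 and 12 libraries. A further pair lay at 36.7 and 39.0 kb (chr2:81937973-81938736 and chr2:81935301-81936816), with a peak in 9 and 12 libraries. The eighth (chr2:81916288-81919266, 57.3 kb) began 819 bp past the 3′ end of notch1 and was the widest, with 2979 bp and a peak in 12 libraries. In wild-type control intestine its peaks did not all overlap, so it was not counted among the 5 regions there, and in TRα-/- control intestine it was made of 2 of the 6 regions. It also lay 4762 bp from sec16a, so that by the same rule it belongs to both genes, whereas the other 7 were within 5 kb of no gene but notch1.

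Of the 7 regions inside the extent, 1 overlapped an exon that the lists name, by 52 bp (the region at 24.9 kb, exon at positions 81950736 to 81951068). The lists name the features nearest to peaks and need not name every exon. Over the genome, 4.16% of 5889 such regions inside a gene overlapped a listed exon.

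**Figure D3:**
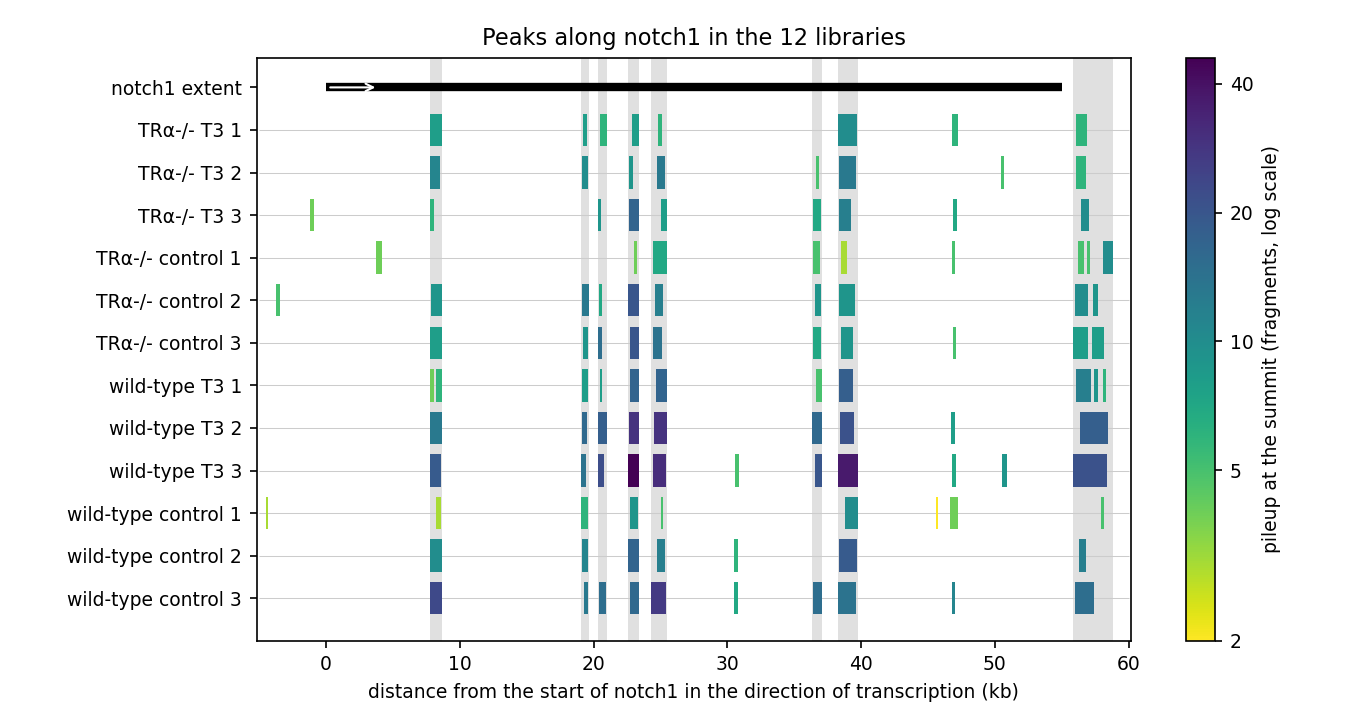
Peaks along notch1 in the 12 libraries (rows), by distance from the start of the gene in kb, colored by the pileup at the summit on a log scale. Gray bands mark the 8 regions called in each of the 3 libraries of at least 1 condition, which stand in columns through the rows, and few peaks lie outside the bands.

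Peaks at notch1 were broader and higher in their libraries than most. Their median width was 540 bp and their median fold enrichment over local background 5.37, against 190 bp and 3.49 at the other 7 Notch genes and 250 bp and 3.97 over all 462997 peaks. A −log10 q of at least 5 was reached by 59 of the 111 peaks at notch1 (53.2%), by 5 of the 89 peaks at the other 7 genes (5.62%), and by 24.7% of all peaks. Most of the 111 peaks are the same regions called again in several libraries. Values for recurrent regions at other genes are not given, so these traits are not shown to be particular to notch1.

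The pileup, the number of fragments over the summit, is not scaled to depth, so peaks were set side by side by their pileup rank, where 1 is the highest pileup of a library and peaks of equal pileup share a rank. The region at 23.0 kb had pileups of 8, 9 and 17 fragments in the TRα-/- T3 libraries, 4, 20 and 20 in TRα-/- control, 17, 29 and 46 in wild-type T3, and 9, 17 and 16 in wild-type control libraries. Its ranks were 2919, 4000 and 2055 in TRα-/- T3, 7921, 1448 and 1485 in TRα-/- control, 2408, 2771 and 1449 in wild-type T3, and 2197, 2820 and 5594 in wild-type control libraries. The best rank of any notch1 peak, 1448, was in this region, and the ranks of the conditions overlapped in all 4 comparisons.

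The region at 24.9 kb ranked 4454, 2272 and 6311 in TRα-/- T3, 3214, 3335 and 2724 in TRα-/- control, 2408, 2771 and 2881 in wild-type T3, and 5393, 4863 and 2535 in wild-type control libraries. The region past the 3′ end, at 57.3 kb, ranked 4454, 7269 and 4616 in TRα-/- T3, 1787, 4425 and 6344 in TRα-/- control, 4147, 5644 and 5166 in wild-type T3, and 5393, 4863 and 6076 in wild-type control libraries. At both, these ranks overlapped between conditions in all 4 comparisons. Each rank is that of the highest peak of the library in the region, and at 57.3 kb these peaks did not all overlap one another. The peak ranked 1787 in TRα-/- control replicate 1 lay 58069 to 58804 bp from the start. The TRα-/- T3 peaks lay between 56081 and 57042 bp. The ranks at 57.3 kb are thus not all of 1 site.

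The region at 39.0 kb ranked 2106, 2272 and 3518 in TRα-/- T3, against 12901, 5143 and 5313 in TRα-/- control libraries. Every TRα-/- T3 library was nearer the top than every TRα-/- control library, as was the case for 9.08% of the 3944 regions with a peak in all 12 libraries. In wild-type T3 libraries it ranked 2187, 4522 and 2153, and in wild-type control libraries 1855, 2353 and 6720, which overlapped. This was the only one of 16 comparisons of these 4 regions (4 regions in 4 comparisons) in which the ranks of the conditions did not overlap, and 1 of 16 is 6.25%. In the other comparisons the share of regions without overlap was 7.63% farther from the top for TRα-/- T3 against TRα-/- control, 10.5% nearer and 6.16% farther for TRα-/- control against wild-type control, 8.87% nearer and 7.40% farther for TRα-/- T3 against wild-type T3, and 7.61% nearer and 4.01% farther for wild-type T3 against wild-type control. Each of these shares is for 1 direction, whereas the count of 1 takes either direction, for which the share of regions is higher. The count of 1 is thus not above the background. The pileups behind it were 10, 13 and 12 in TRα-/- T3 and 3, 9 and 9 in TRα-/- control libraries.

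Ranks within lists of unequal length can also be expressed as a percent of the peaks of the library, and 5 of the 16 comparisons then did not overlap. At 39.0 kb the percent was 8.73 to 12.1 in TRα-/- T3 and 12.5 to 29.2 in TRα-/- control libraries, nearer the top with T3, as at 1.09% of the 3944 regions. The other 4 were farther from the top. At 39.0 kb TRα-/- control libraries (12.5 to 29.2) were farther than wild-type control libraries (5.26 to 10.6), as at 7.05% of regions. At 24.9 kb TRα-/- T3 libraries (8.73 to 25.6) were farther than TRα-/- control libraries (6.42 to 8.56), as at 30.2% of regions. TRα-/- T3 libraries were also farther than wild-type T3 libraries at 24.9 kb (8.73 to 25.6 against 6.46 to 6.89) and at 57.3 kb (14.9 to 27.9 against 11.6 to 13.8), as at 30.4% of regions. The TRα-/- T3 lists were also the shortest, whose part in these values was not tested.

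**Figure D4:**
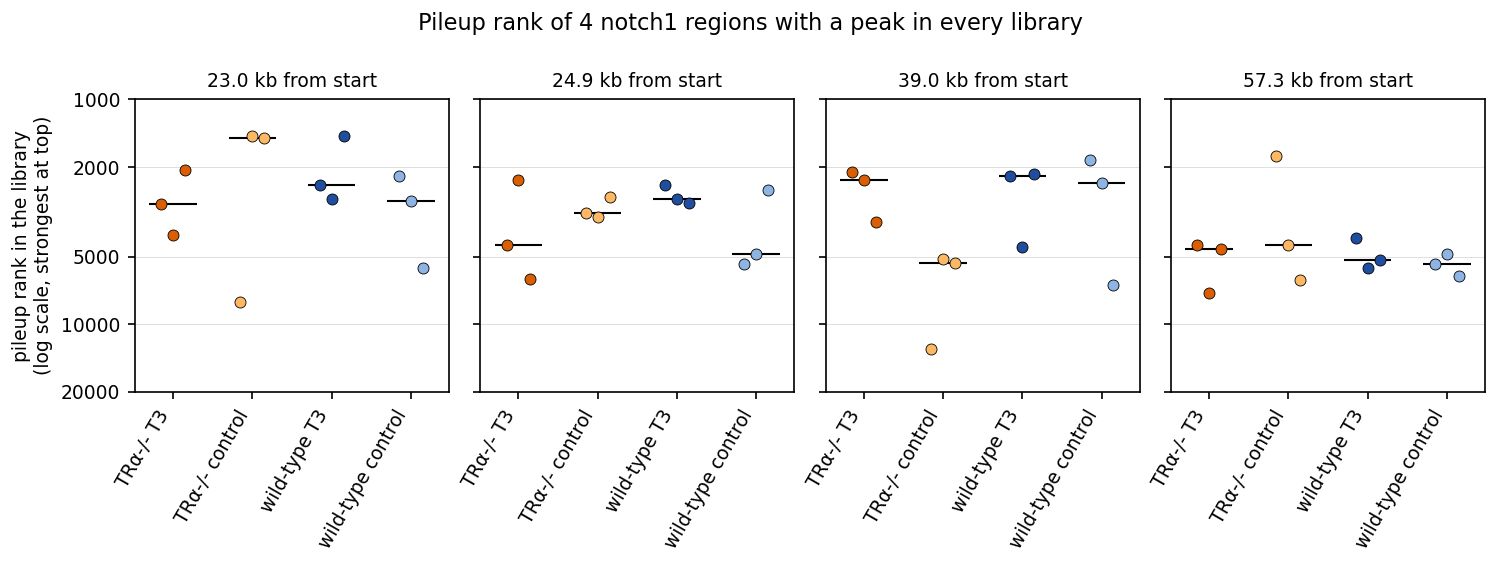
Pileup rank (log scale, 1 panel for each of the 4 notch1 regions with a peak in every library, strongest at the top) in the 3 libraries of each condition, with the median as a line. At 39.0 kb the TRα-/- T3 libraries (2106 to 3518) lie above the TRα-/- control libraries (5143 to 12901), and in the other panels these ranks overlap in each comparison. Points show the highest peak of each library in the region, and at 57.3 kb these peaks do not all overlap one another.

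The other 4 of the 8 regions lacked a peak in some libraries, which were of every condition but wild-type T3. The share of all regions with such gaps is not given, so nothing is drawn from this. The region at 36.7 kb had a peak in 2 of 3 TRα-/- T3, 3 of 3 TRα-/- control, 3 of 3 wild-type T3 and 1 of 3 wild-type control libraries. The region at 20.7 kb had a peak in 2, 2, 3 and 1 libraries of the conditions in that order, that at 19.4 kb in 2, 2, 3 and 3, and that at 8.2 kb in 3, 2, 3 and 3. Another region (chr2:81927821-81928468, 46.9 kb) had a peak in 8 libraries, 2 in each condition, and so was not counted as bound in any.

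No notch1 region, and no region of any other Notch gene, was called in each of the 3 libraries of one condition and in none of the condition it was compared with. Over all joined regions such a gain or loss was rare: 0.0363% had it in TRα-/- T3 against TRα-/- control and 0.125% the other way round, 0.158% in wild-type T3 against wild-type control and 0.0488% the other way round. For the genotypes it was 0.0401% in TRα-/- control against wild-type control and 0.206% the other way round, and 0.00908% in TRα-/- T3 against wild-type T3 and 0.570% the other way round. Against shares this low, a count of 0 among 97 regions says little.

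notch2, a second receptor (chromosome 4, 107485383 to 107567827, minus strand, 82445 bp), is the longest of the 8 genes but had 28 peaks over the 12 libraries, 0.252 per 10 kb and library. The libraries held 0, 1 and 2 peaks in TRα-/- T3, 5, 2 and 3 in TRα-/- control, 1, 0 and 3 in wild-type T3, and 2, 4 and 5 in wild-type control intestine. The peaks formed 27 regions, of which 26 had a peak in a single library. The exception, at the 3′ end of the gene (chr4:107486159-107486664), had a peak in wild-type control replicates 1 and 2, with a pileup of 6 fragments in both.

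notch3, a receptor known in mammals for its part in the smooth muscle of blood vessels (chromosome 3, 122271401 to 122318369, minus strand, 46969 bp), had 23 peaks. The libraries held 0, 1 and 0 peaks in TRα-/- T3, 3, 1 and 2 in TRα-/- control, 2, 4 and 2 in wild-type T3, and 1, 3 and 4 in wild-type control intestine. Of its 18 regions, 15 had a peak in a single library and 1 in 4 libraries (chr3:122315829-122316506, 2.2 kb inside the start). That region had pileups of 6 in TRα-/- T3 replicate 2, 8 in wild-type T3 replicate 2, and 6 and 10 in wild-type control replicates 2 and 3. With ranks between 7269 and 16847, it was the most recurrent region outside notch1 and was called in all 3 libraries of no condition.

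The ligands had fewer peaks than the receptors. Per 10 kb and library they had 0.137 (dll1) to 0.309 (dll4), beside 0.252 at notch2 and 0.336 at notch3. dll1, a Delta-like ligand (chromosome 5, 39847611 to 39855903, minus strand), had 3 peaks, in wild-type T3 replicate 2 and in wild-type control replicates 1 and 2, at 3 different positions. dll4, the Delta-like ligand best known from growing blood vessels and also made in the mouse intestinal crypt (chromosome 8, 95198059 to 95215018, plus strand), had 10 peaks in 7 libraries, each at a position of its own. Its highest pileup was 5 fragments.

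jag1, a Jagged ligand (chromosome 5, 22783301 to 22822280, minus strand, 38980 bp), had 11 peaks in 8 libraries. jag2, its paralog (chromosome 8, 79980957 to 80033927, minus strand, 52971 bp), also had 11 peaks, in 7 libraries. In both, 9 of 10 regions had a peak in a single library and 1 in a pair of libraries from different conditions. jag2 is about as long as notch1, yet its peaks were fewer in every library: 0, 1 and 0 in TRα-/- T3, 2, 2 and 0 in TRα-/- control, 1, 0 and 1 in wild-type T3, and 0, 1 and 3 in wild-type control intestine.

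hes1, the transcriptional repressor that is the classical target of Notch (chromosome 5, 96943066 to 96945483, plus strand, 2418 bp), had 3 peaks. They lay downstream of the gene at different positions, with pileups of 3 in TRα-/- T3 replicate 3, 3 in TRα-/- control replicate 3 and 4 in wild-type T3 replicate 1, and no peak lay in the gene or upstream of it. For rbpj, the DNA-binding partner of the receptors, the lists name no feature, so neither its extent nor its peaks are given. Whether the weak single-library peaks of the ligands and of hes1 differ from background was not tested, since no input library was used and depth is unknown.

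In all, the 7 genes other than notch1 had 81 regions, of which 75 (92.6%) had a peak in a single library and none in more than 4, beside 81.9% in a single library over the genome. In TRα-/- T3 replicate 1, the library with the fewest peaks, none of the 7 had a peak while notch1 had 8.

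To compare conditions over libraries of unequal size, the peaks at the 8 genes were counted per 10000 peaks of the same library. The values were 4.59, 5.38 and 3.88 in TRα-/- T3 and 4.98, 4.36 and 4.24 in TRα-/- control libraries, a difference of 0.0919 between means (exact permutation test, two-sided, p = 0.9). In wild-type T3 libraries they were 4.87, 4.16 and 3.81, and in wild-type control libraries 4.33, 4.03 and 3.95 (difference 0.179, exact p = 0.8). The groups overlapped, and neither effect of T3 was larger than the spread between replicates. Counted in the gene extents alone, without flanks, the wild-type T3 libraries (3.66 ± 0.0662, SD, n = 3 each) were all above the wild-type control libraries (2.98 ± 0.151). The difference of 0.676 had an exact permutation p of 0.1, the smallest possible, and a Benjamini-Hochberg adjusted value of 0.2 over the 4 comparisons. For single genes, counted with 5-kb flanks, the same order was found at 11.5% of the 2681 genes with a peak in every library. That share is for another flank and for 1 gene at a time, so it is no background for the sum over 8 genes.

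The genotypes were compared in the same way. The mean was 4.53 ± 0.395 (SD, n = 3 libraries each) in TRα-/- control and 4.1 ± 0.202 in wild-type control libraries (difference 0.425, exact permutation p = 0.2), and higher in TRα-/- in each of 3 same-numbered pairs. The groups did not overlap without flanks (difference 0.509) or with 10-kb flanks (0.74), with an exact permutation p of 0.1 in both. The adjusted values were 0.2 and 0.4. For single genes, counted with 5-kb flanks, the same order was found at 5.78% of the 2681 genes with a peak in every library. With T3, and again with 5-kb flanks, the mean was 4.62 ± 0.750 in TRα-/- and 4.28 ± 0.536 in wild-type libraries (difference 0.338, exact permutation p = 0.6). With 5-kb flanks the Benjamini-Hochberg adjusted values over the 4 comparisons lay between 0.8 and 0.9, and the smallest p that 3 libraries against 3 allow is 0.1. The effect of T3 in TRα-/- minus that in wild-type libraries was -0.087 (exact permutation of treatment within genotype, 400 arrangements, p = 0.89).

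For notch1 alone, a quantity chosen after its values were seen, peaks per 10000 were 4.59, 3.07 and 2.91 in TRα-/- T3 libraries, against 2.04, 2.57 and 2.36 in TRα-/- control libraries. The difference of 1.21 had an exact permutation p of 0.1, the smallest possible, and an adjusted value of 0.4 over the 4 comparisons. All 3 TRα-/- T3 libraries were above the controls, as was the case for 21.4% of the 2681 genes with a peak in every library. The number of peaks itself was not higher: it was 8, 8 and 9 in TRα-/- T3 and 9, 10 and 10 in TRα-/- control libraries, which held 17414 to 30916 and 38961 to 44196 peaks in all. The notch1 value thus moved with the size of the lists, whose part in it was not tested further.

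The wider pathway was described with a list of 77 other symbols, of which the lists name 58. Of these, 12 were TR-bound in at least 1 condition (20.7%, beside 24.0% of all genes) and 6 in all 4 conditions (10.3%, beside 8.55%). By condition, 8 were bound in TRα-/- T3 (13.8%), 7 in TRα-/- control (12.1%), 10 in wild-type T3 (17.2%) and 9 in wild-type control intestine (15.5%), which is near the shares of all genes. By role, 1 of 3 named ligands, 1 of 5 genes for ligand activity, 0 of 2 receptor glycosylation genes, 2 of 7 receptor cleavage genes, 2 of 7 genes of the nuclear complex, 1 of 6 corepressors, 3 of 7 genes of receptor turnover, 2 of 15 hes and hey genes and 0 of 6 secretory lineage factors were bound in at least 1 condition.

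The highest-ranking region of this list lay at hes7.1, a gene of the Hes repressor family (chr3:131474813-131475314, 2.9 kb from its start and 34 bp past its end). Its pileups were 24, 64 and 82 in TRα-/- T3, 56, 81 and 82 in TRα-/- control, 81, 156 and 134 in wild-type T3, and 32, 94 and 113 in wild-type control libraries. These placed it at ranks 128 to 526 in the 12 libraries, nearer the top than any peak at notch1. hes7.2, another gene of the family, was bound in wild-type T3 intestine, by a region upstream of its start with a peak in 6 libraries.

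ncstn, which codes for nicastrin, a subunit of the γ-secretase that frees the Notch intracellular part, had a region with ranks 402 to 1392 in the 12 libraries (chr8:114062183-114062724, 1463 bp past its extent). A second region with a peak in all 12 libraries lay inside the gene, at ranks 3426 to 12901. adam17, which codes for a protease that can shed the receptor's outer part, was bound in wild-type control intestine, by a region with a peak in 6 libraries.

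maml1, a Mastermind coactivator of the Notch and RBPJ complex, had a region with a peak in all 12 libraries (chr3:3444116-3444777, ranks 929 to 13083). Its paralog maml2 was bound in 3 conditions, all but TRα-/- control, by a region with a peak in 11 libraries. Of the corepressors, ctbp1 was bound in all 4 conditions, with 1 of its 5 regions called in all 12 libraries.

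Among genes that act on the amount of receptor, itch, a ubiquitin ligase, had 2 regions, in 12 and 11 libraries, and was bound in all 4 conditions. dtx1, a Deltex gene, was bound in 3 conditions, all but wild-type control, by a region with a peak in 11 libraries. fbxw7, the ubiquitin ligase subunit that marks the Notch intracellular part for degradation, was bound in wild-type T3 intestine (peak in 6 libraries). dner, listed with the ligands, was bound in all 4 conditions by 2 regions in 11 and 10 libraries, but by neither region alone. The first had a peak in 2 of 3 wild-type T3 libraries. The second had a peak in 3 of 3 of them and also lay within 5 kb of pid1. neurl1b, a Neuralized ubiquitin ligase acting on ligands, was bound in wild-type control intestine (peak in 8 libraries).

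**Figure D5:**
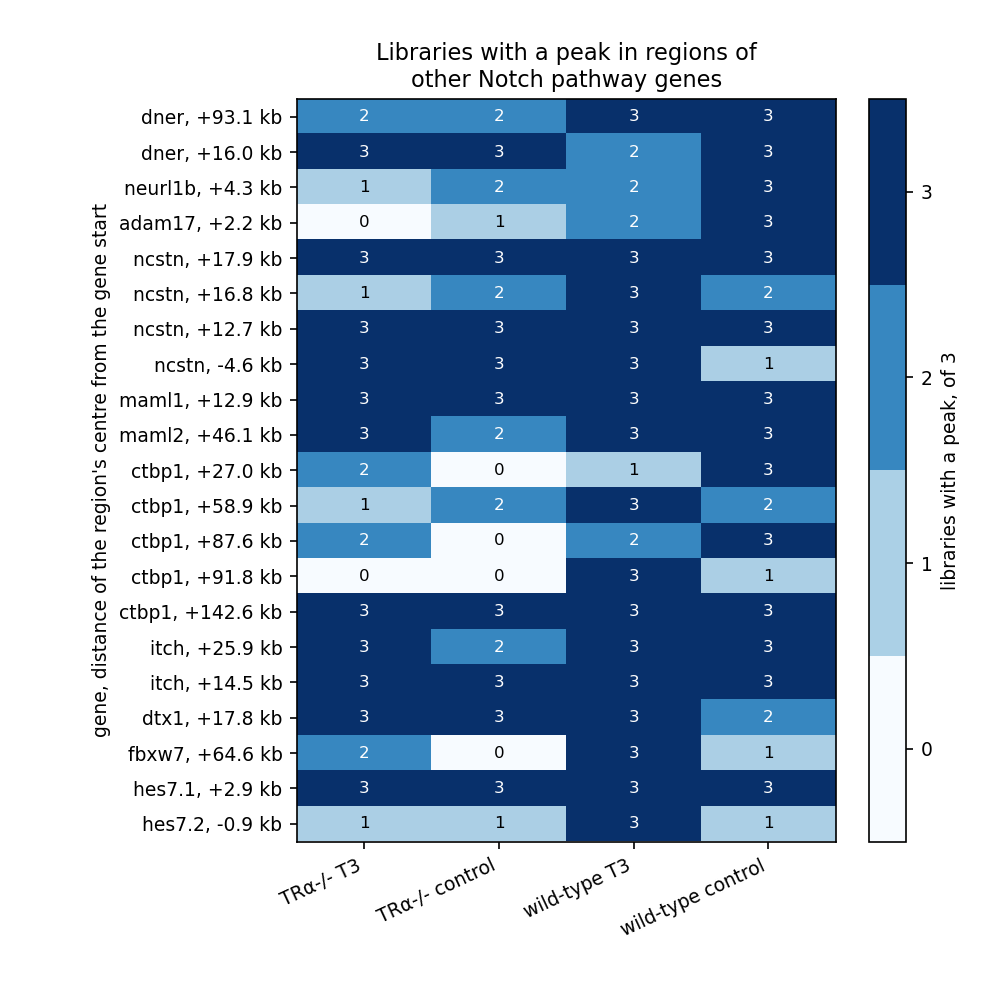
Libraries with a peak, of 3, in each condition (columns) for the 21 regions of the 12 TR-bound genes of the wider Notch pathway list (rows, with the distance of the centre of the region from the gene start in kb). Regions of ncstn, maml1, ctbp1, itch and hes7.1 have a peak in 3 of 3 libraries of every condition.

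The genes whose number of peaks followed that of notch1 most closely over the 12 libraries were lrch3, aak1 and cpe, with a Pearson r of 0.84 each among 5479 genes. For notch2 they were rgs7bp (r = 0.94), megf6 (0.94) and adgrb3 (0.92), and for notch3 tmcc1 (0.93), tspan12 (0.91) and chac2 (0.90). All counts of a library share its depth and its number of peaks, and r over 0.7 was found for 0.894% of genes with notch1, 9.83% with notch2 and 8.25% with notch3. The coefficients are given as descriptions over 12 libraries of 4 ChIP DNA samples.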

How the data were processed

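TR ChIP-Seq peak lists of 12 libraries were analysed, with groups and replicate numbers from the sample labels. The authors aligned reads to Xenbase v9.1 with Bowtie2 2.3.4.1, removed redundant reads, and called peaks on each library with MACS2 2.1.1.20160309 at a q-value under 0.05 without a control. The deposited lists give each peak's position, its pileup signal in fragments, its fold enrichment as a ratio to local background, and its −log10 p-value and −log10 q-value. The nearest annotated features that the authors attached were used for names and extents, and lines were reduced to 1 per peak.

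Peaks were joined by an overlap of 1 bp. Gene extents run over the listed features, and 68.4% of genes had a full gene feature, as did all 8 Notch genes. The reference gene table (UCB_Xtro_10.0) gave the same symbol for 8 of 8 gene IDs and no coordinates. Peaks per 10000 were compared with exact permutation tests, two-sided. With the replicate number as a block, same-numbered libraries deviated together in this measure for pairs of conditions without TRα-/- T3 (r between 0.99 and 1.00, n = 3 each). For pairs with TRα-/- T3, r lay between 0.13 and 0.30. In the number of peaks they deviated together for pairs of conditions without TRα-/- control (r between 0.95 and 1.00), but not for pairs with TRα-/- control (r between -0.47 and -0.16). No label states a shared batch.

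Named are all 9 Notch genes, each of their regions called in every library of a condition, and each bound gene of the wider list. A further gene was left out of the wider list and its counts, and is not reported here. Likeness was computed over genes with at least 12 peaks that lie over 100 kb away. Members and lists were chosen with earlier results of these data known. Alternatives were peaks at or above a −log10 q of 5, the 17414 strongest peaks in each library, flanks of 0 or 10 kb, an overlap of 50%, a peak in 2 of 3 replicates, other ranks, replicates left out, the block, and, chosen after seeing the data, notch1 alone or left out. On simulated peaks, the joining step was tested with known answers. Motif searches were not run and no sequence is shown, since no sequence of the assembly was at hand. Python 3.11.15, numpy 2.4.6, pandas 2.3.3 and scipy 1.17.1 were used.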

Additional observations from a re-analysis of the deposited data

How the results depend on the processing

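notch1 was TR-bound in all 4 conditions under every alternative run, by 1 to 10 regions. With a −log10 q of at least 5 it kept 1 region in TRα-/- T3, 1 in TRα-/- control, 4 in wild-type T3 and 2 in wild-type control intestine. In wild-type control intestine the number of bound Notch genes was 3 (notch1, notch2 and notch3) when 2 of 3 replicates sufficed, and 1 to 2 with each replicate left out: notch3 joined without replicate 1 and notch2 without replicate 3. A rule that needs 2 libraries is looser for every gene. The share of all genes bound under it is not given, so nothing is drawn from these counts about notch2 or notch3. Regions gained or lost between conditions numbered 0 with all libraries. They numbered 1 for wild-type T3 over TRα-/- T3 at a −log10 q of at least 5. With each replicate left out they numbered 0 to 2 for wild-type T3 over wild-type control and for wild-type control over TRα-/- control, and 0 to 1 for wild-type control over wild-type T3 and TRα-/- control over wild-type control. Region ranks that did not overlap numbered 1 of 16, 5 as a percent of peaks, and 4 to 7 with each replicate left out, where 2 libraries met 2. With 2 libraries against 2, any region reaches a gain, a loss or separate ranks more easily. Shares of all regions are not given for 2 against 2 or for a −log10 q of at least 5, so nothing is drawn from these counts.

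No test of peaks per 10000 could give a p under 0.1 (3 libraries against 3), 0.25 (block) or 0.333 (2 against 2), so the tests say nothing about stability. The size and the sign of the differences depended on the processing. Without flanks the difference was 0.676 for wild-type T3 against control and 0.509 for TRα-/- control against wild-type control, and with 10-kb flanks 0.74 for the same genotypes, each without overlap (exact permutation p = 0.1). Adjusted over the 4 comparisons of each setting, these p-values were 0.2, 0.2 and 0.4. At a −log10 q of at least 5 the difference was -1.16 for wild-type T3 against control and -0.172 for TRα-/- control against wild-type control. With 17414 peaks in each library it was -1.15 for wild-type T3 against control, -0.191 for TRα-/- T3 against control and -0.957 for TRα-/- control against wild-type control. Without notch1 it was -0.513 for wild-type T3 against control, -1.12 for TRα-/- T3 against control and -0.582 for TRα-/- T3 against wild-type T3. For TRα-/- control against wild-type control it was 0.0203 without notch1. Leaving out each replicate gave -2.55e-05 to 0.335 for wild-type T3 against control, -0.371 to 0.33 for TRα-/- T3 against control, and -0.103 to 0.644 for TRα-/- T3 against wild-type T3. With the replicate block the p-values for wild-type T3 against control, TRα-/- T3 against control and TRα-/- against wild-type without and with T3 were 0.75, 1, 0.25 and 0.75 (exact permutation by sign flips within pairs, smallest p 0.25, differences 0.179, 0.0919, 0.425 and 0.338). The pairs of TRα-/- and wild-type control libraries all had the same sign. The cause of these changes was not tested. All values rest on 1 ChIP DNA sample for each condition, without an input library, and on libraries of unknown depth.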

Other observations

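The lists carry a further Notch receptor gene without a symbol, which the reference gene table names notch4 by its gene ID. It was looked up after the other values were seen and is on chromosome 8 of Xenbase v9.1, from 54394369 to 54443445 on the minus strand. Of its 6 joined regions, 4 had a peak in a single library, and 1 (chr8:54435857-54437394) had a peak in 11 libraries: 2 of 3 TRα-/- T3, 3 of 3 TRα-/- control, 3 of 3 wild-type T3 and 3 of 3 wild-type control libraries. Its pileup ranks lay between 6344 and 19206, and by this region the gene was TR-bound in 3 of the 4 conditions. With it, 2 of the 4 receptor genes found in the lists had a region called in every library of at least 1 condition, beside 24.0% of all genes that were TR-bound in at least 1 condition. The share of TR-bound genes rose with extent. In wild-type T3 intestine it was 23.5% among genes of 20 to 50 kb, the class of notch3 and notch4. Among genes of 50 kb and over, the class of notch1 and notch2, it was 32.7%. No share in at least 1 condition is given for either class, so nothing is drawn from this count.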
